A study of Mus musculus with 2 samples.

Results

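The genes that carry iron into cells, store it, release it and set that balance are described here in heart tissue of young mice. They were taken by symbol, namely Trf, Tfrc, Steap3, Slc11a2, Fth1, Ftl1, Slc40a1, Hamp, Aco1 and Ireb2, and matched to gene identifiers through the transcript names of the deposited tables. They are 10 of the 55536 genes in those tables. All 10 were among the 12908 genes with a mean of at least 1 CPM (counts scaled to the TMM-adjusted library total) over both hearts. They were chosen by measured values of these same libraries, namely their TPM, their counts and their ratio between the hearts, so every value below is a description and none is tested.

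Total RNA, 300 ng per library, came from heart tissue of B6CASTF1/J males (n = 2), an F1 hybrid strain that carries 1 set of chromosomes from C57BL/6J and 1 from CAST/EiJ. Both animals were 25 days old, with no treatment named in the labels, and are numbered 3 and 4 in the labels, which nevertheless give them 1 donor identifier. Each animal gave 1 library, called replicate 1 and replicate 2, and a set of synthetic spike-in RNAs was added to both. There is 1 group and no second tissue, age, genotype or treatment, so the only comparison is between the 2 hearts, and it has no replicate check.

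Iron travels in blood bound to transferrin, which the transferrin receptor takes into the cell by endocytosis. A reductase in the endosome reduces the iron and a divalent metal transporter moves it to the cytosol, where ferritin stores it and the exporter ferroportin releases it. Hepcidin, a peptide hormone made mostly in liver, binds ferroportin and leads to its breakdown. The iron regulatory proteins bind RNA hairpins called iron-responsive elements when cytosolic iron is low. In a 5′ untranslated region (UTR) such a hairpin blocks translation, as in ferritin and ferroportin mRNA, and in the 3′ UTR of transferrin receptor mRNA it protects the message from decay. In heart muscle, iron serves mitochondrial respiration and the oxygen store myoglobin.

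The hairpins are shown first, because they are the sequences through which 5 of the 10 mRNAs are known to answer to cellular iron. All GENCODE M21 transcripts were searched on their own strand for a C, then 5 bases, the loop letters CAGTGN, and 5 bases that pair with the first 5 in reverse order, G with T allowed. Each is printed as 27 bases of cDNA, 5′ to 3′ on the gene's strand with 5 further bases on either side, and the capitals mark the 6 bases of the loop. Positions are in mm10.
Tfrc element 1, 3′ UTR, chr16:32631220-32631246, plus strand: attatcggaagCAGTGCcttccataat
Tfrc element 2, 3′ UTR, chr16:32631599-32631625, plus strand: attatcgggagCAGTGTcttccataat
Tfrc element 3, 3′ UTR, chr16:32631664-32631690, plus strand: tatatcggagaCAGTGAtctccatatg
Tfrc element 4, 3′ UTR, chr16:32631711-32631737, plus strand: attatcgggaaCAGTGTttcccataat
Slc11a2, 3′ UTR, chr15:100395154-100395180, minus strand: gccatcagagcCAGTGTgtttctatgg
Fth1, 5′ UTR, chr19:9982733-9982759, plus strand: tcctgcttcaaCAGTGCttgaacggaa
Ftl1, 5′ UTR, chr7:45459780-45459806, minus strand: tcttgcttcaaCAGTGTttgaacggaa
Slc40a1, 5′ UTR, chr1:45925466-45925492, minus strand: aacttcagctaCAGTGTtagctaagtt

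The elements of Fth1 and Ftl1 had 25 of 27 bases in common and differed by C3T and C17T, counted from 1 at the 5′ end with the Fth1 base first. Elements 1 and 2 of Tfrc also had 25 of 27 bases in common and differed by A9G and C17T, with the base of element 1 first. Any other pair from 2 different genes had between 9 and 15 identical bases. All 5 stem pairs were present in each element apart from that of Slc11a2, which had 4. A match with all 5 pairs lay somewhere in the protein-coding transcripts of 294 of 21901 protein-coding genes (1.34%), and one with 4 or 5 pairs in 2341 (10.7%). No match was found in Trf, Steap3, Hamp, Aco1 or Ireb2. A match says only that these letters are present in the annotated transcript. Hairpins with other loop letters or fewer than 4 pairs are missed by this search.

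Gene tables held 38253821 (replicate 1) and 40655101 (replicate 2) estimated counts over genes, and a second quantification of the same libraries held 37677065 and 39520407. The tissue label was checked against heart muscle markers: all 5 of 5 were above 1 TPM (abundance per length, scaled to the library total) and Myh6, the adult heavy chain of heart myosin, stood at 8807 and 8307 TPM. Ratios are given as log2 of replicate 1 over replicate 2, after TMM scaling, with an exact binomial 95% interval that covers counting error only. Of the 12908 genes, 117 (0.906%) were past 2-fold with the higher value in replicate 1 and 38 (0.294%) with the higher value in replicate 2. With spike-in scaling the same counts were 173 (1.34%) and 26 (0.201%) of 12914 genes, and in the second quantification they were 105 (0.801%) and 35 (0.267%) of 13106. Summed marker levels of some other cell types differed between the hearts: erythroid markers were at 46570 and 23415 TPM (7 of 7 higher in replicate 1), adipocyte markers at 238.8 and 34.6 TPM (6 of 6) and Schwann cell markers at 11.0 and 4.35 TPM (4 of 4). Macrophage markers were at 70.0 and 66.0 TPM, fibroblast markers at 239.1 and 216.8, epicardial markers at 28.1 and 22.9, endothelial markers at 186.9 and 202.5, and neutrophil markers at 0.72 and 0.52. In bulk tissue, fewer cells of a type and less RNA per cell cannot be told apart.

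Of the 10 iron genes, 1 was past 2-fold, namely Tfrc, which was higher in replicate 2, where the share over all genes was 0.294%. None of the 10 was past 2-fold in the other direction, where the share was 0.906%. The second quantification gave the same result, with Tfrc past 2-fold where the share was 0.267% and none where it was 0.801%. With spike-in scaling Trf passed 2-fold as well, where the share was 1.34%, and Tfrc did where it was 0.201%. At 1.5-fold, Trf and Ftl1 were higher in replicate 1, 2 of 10 genes against 2.97% of all genes, and Tfrc was higher in replicate 2, 1 of 10 against 1.56%. The median log2 ratio of the 10 was 0.08, beside -0.01 over all genes tested. The other 7 genes had log2 ratios between -0.36 and 0.08.

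**Figure D1:**
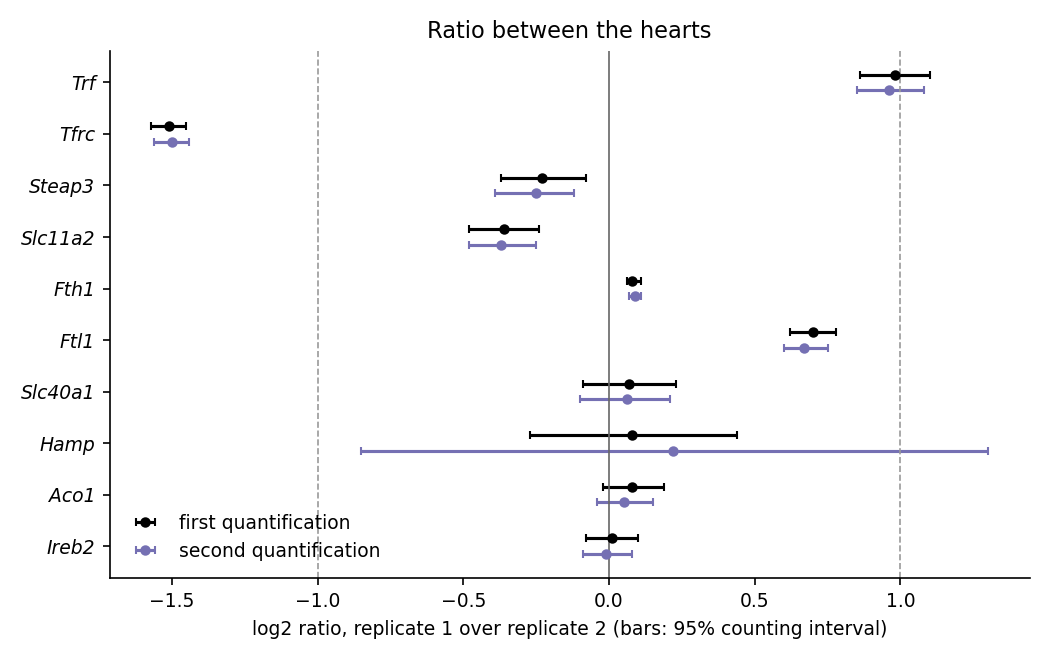
Log2 ratio of TMM-scaled estimated counts, replicate 1 over replicate 2, for each iron gene, with 95% counting intervals as bars, in the first (black) and second (violet) quantification; dashed lines mark 2-fold. Tfrc lies beyond the line on the replicate 2 side in both, and Trf lies at the line on the replicate 1 side, at 0.98 and 0.96.

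Tfrc (ENSMUSG00000022797.16, chr16:32608920-32632794, plus strand) encodes the transferrin receptor, the main entry route of transferrin iron. It stood at 25.6 TPM in replicate 1 and 69.3 TPM in replicate 2, from 3122 and 9795 estimated counts. Replicate 2 was thus the high heart, by 2.85-fold after scaling (counting interval 2.74 to 2.97). The log2 ratio was -1.51 (interval -1.57 to -1.45), and it was the 12th of 12908 genes in that direction. The second quantification gave 25.4 and 70.3 TPM and a log2 ratio of -1.50 (-1.56 to -1.44). Over the scalings and the second quantification the value lay between -1.56 and -1.37. The mean level was 47.5 ± 30.9 TPM (SD, n = 2).

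**Figure D2:**
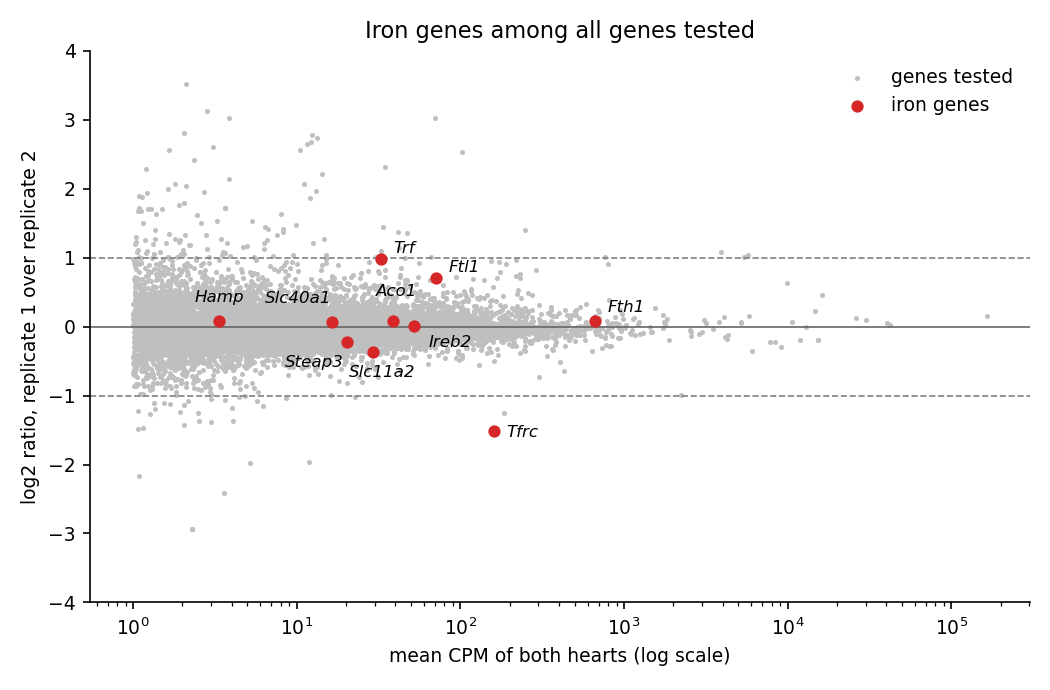
Log2 ratio of replicate 1 over replicate 2 against mean CPM (log axis) for the 12908 genes tested, with the 10 iron genes in red and dashed lines at 2-fold; 5 genes lie beyond the axis limits of ±4. Tfrc, at -1.51, lies below the lower dashed line, Trf and Ftl1 lie at 0.98 and 0.70, and the other 7 lie between -0.36 and 0.08.

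The transferrin receptor transcripts were then split by the 3′ UTR elements printed above. Tfrc-201 and the retained-intron transcript Tfrc-204 carry all 4 of these matches, and the other 5 annotated transcripts carry none of them. The transcripts with elements stood together at 17.4 TPM in replicate 1 and 53.1 TPM in replicate 2, a log2 ratio of -1.59 (-1.65 to -1.53). In the second quantification that ratio was -1.57 (-1.63 to -1.51). The share of Tfrc TPM with elements was 68.1% in replicate 1 and 76.6% in replicate 2, and 81.9% and 94.0% in the second quantification. In both it was the higher in replicate 2. TPM divides by length, so short transcripts weigh more in this share than in counts. In the first quantification, transcripts with elements had 2691 counts in replicate 1 and 8918 in replicate 2, against 431 and 877 without.

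The transcripts without elements gave different answers in the 2 quantifications. They stood at 8.16 and 16.2 TPM in the first, with a log2 ratio of -0.89 (-1.06 to -0.72), and most of that was Tfrc-202, a coding transcript of 1860 bases. In the second quantification the log2 ratio of the transcripts without elements was 0.76 (0.42 to 1.10), from 191 and 124 counts, which is the opposite direction. The amount of Tfrc-202 is therefore uncertain, while Tfrc-201 was higher in replicate 2 by 3.10-fold in the first and 2.98-fold in the second quantification. The retained-intron transcript Tfrc-204 had only 97 and 52 counts and was higher in replicate 1.

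**Figure D3:**
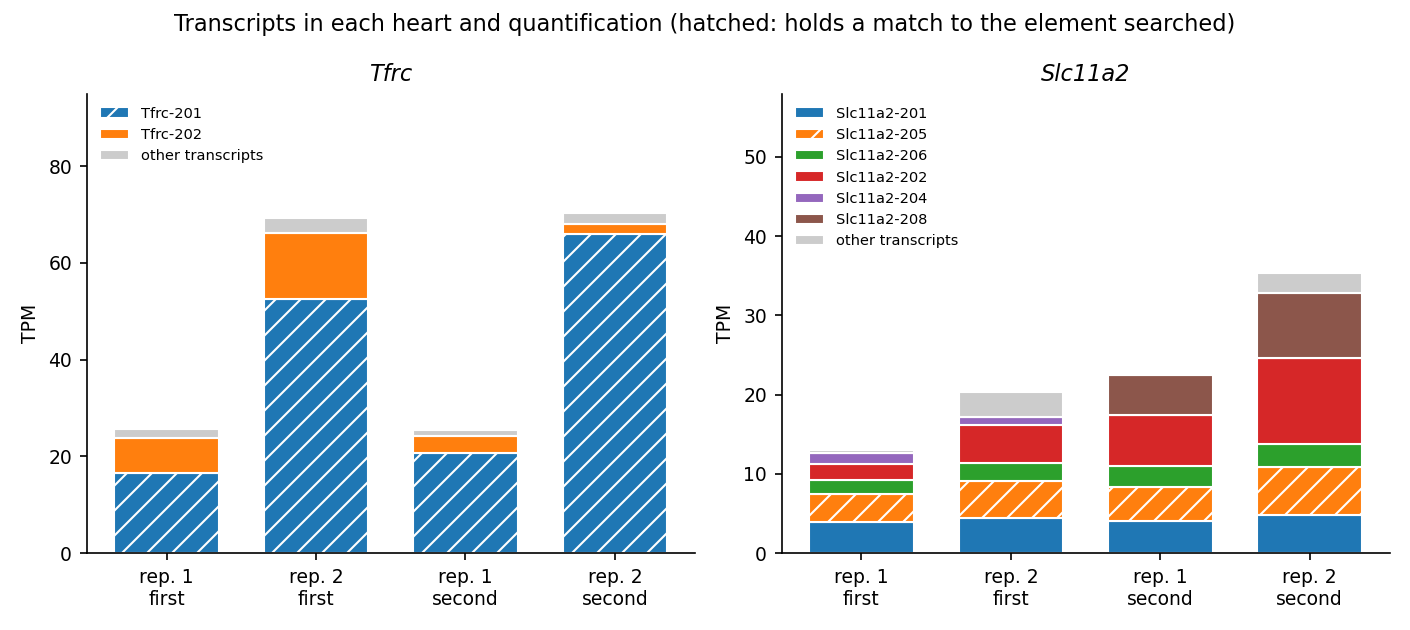
TPM of the transcripts of Tfrc (left) and Slc11a2 (right) in replicate 1 and replicate 2, by the first and second quantification; hatching marks named transcripts that hold a match to the element, and grey bars pool transcripts that stay under 10% throughout. Tfrc-201 makes up most of Tfrc in every bar, and Slc11a2 is split among several transcripts.

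Trf (ENSMUSG00000032554.15, chr9:103204001-103230444, minus strand) encodes transferrin, the iron carrier of plasma, made mostly in liver. It stood at 32.1 TPM in replicate 1 and 17.0 TPM in replicate 2, from 1639 and 915 counts, a mean of 24.5 ± 10.6 TPM (SD, n = 2). Replicate 1 was the high heart, the reverse of the receptor. The log2 ratio was 0.98 (0.86 to 1.10), just under 2-fold, and 0.96 (0.85 to 1.08) in the second quantification. It passed 2-fold with spike-in scaling, at 1.12. Within each heart, Trf over Tfrc had a log2 TPM ratio of 0.32 in replicate 1 and -2.02 in replicate 2 (pseudocount 0.1), so carrier mRNA was the more abundant in replicate 1 and receptor mRNA in replicate 2.

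Hepatocyte markers were set beside transferrin. Of 5 hepatocyte markers, Alb and Fgb had no count in either heart, and Apoa1 and Ttr stayed at or below 0.25 TPM. The fetuin gene Ahsg had 4.48 and 3.46 TPM, and the summed list was at 4.85 and 3.65 TPM. The part of liver RNA in the level of Trf was not tested. All markers of the erythroid, Schwann cell, adipocyte and epicardial lists were higher in replicate 1, as Trf was. Their median log2 ratios past the CPM filter were 0.97, 1.01, 2.64 and 0.26. Of the endothelial and heart muscle markers, 4 of 5 and 3 of 5 were higher in replicate 2. The part of any of these cell types in the ratio of Trf was not tested.

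The counts of Trf share sequence with another annotated gene. Gm20425 lies on the same strand and overlaps Trf over 26307 bases, and 77.3% of the 100-base windows of Trf-201 occur in it too. Gm20425 had 291 and 246 counts. Summed, Trf and Gm20425 stood at 35.1 and 19.4 TPM with a log2 ratio of 0.87 (0.77 to 0.98), and 0.86 in the second quantification. Trf-201, a coding transcript, led in both hearts with 57.2% and 55.9% of the gene's abundance, followed by the retained-intron transcript Trf-209 with 39.7% and 43.7%, a share that was only 16.1% and 14.0% in the second quantification.

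Steap3 (ENSMUSG00000026389.16, chr1:120190757-120272705, minus strand) encodes the endosomal ferrireductase of erythroid cells. Its levels were 9.11 and 9.59 TPM, a mean of 9.35 ± 0.339 TPM (SD, n = 2). Counts were 705 and 908, with a log2 ratio of -0.23 (-0.37 to -0.08), and -0.25 (-0.39 to -0.12) in the second quantification, so counts were slightly higher in replicate 2. The erythroid marker list was higher in replicate 1, and its part in the ratio of Steap3 was not tested. In the first quantification the TPM values lay closer together than the counts, while in the second they were 9.98 and 11.7 TPM. The 1288-base transcript Steap3-205 held 29.4% of the gene's abundance in replicate 1 and 11.6% in replicate 2. Steap3-202, of 2752 bases, led in both hearts with 64.6% and 75.2%, and with 50.8% and 51.0% in the second quantification. That quantification gave Steap3-205 only 12.4% and 0%, and gave Steap3-204 29.9% and 40.6%, against 0% and 4.64% in the first, so these minor shares are uncertain.

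Slc11a2 (ENSMUSG00000023030.16, chr15:100387898-100425072, minus strand) encodes the divalent metal transporter of the endosome and the gut. It stood at 13.0 TPM in replicate 1 and 20.4 TPM in replicate 2, from 967 and 1371 counts, a mean of 16.7 ± 5.17 TPM (SD, n = 2). Replicate 2 was the higher by 1.29-fold after scaling (1.18 to 1.40), a log2 ratio of -0.36 (-0.48 to -0.24). The second quantification gave a log2 ratio of -0.37 (-0.48 to -0.25) but higher levels, 22.5 and 35.4 TPM. Slc11a2 was the member whose leading transcript by share of TPM differed between hearts. Slc11a2-201 was first in replicate 1 at 29.9% and Slc11a2-202 first in replicate 2 at 23.6%. The lead in replicate 2 was narrow, with Slc11a2-205 at 22.9% and Slc11a2-201 at 21.6%. Slc11a2-202 has 709 bases and had only 40 and 103 counts. By counts Slc11a2-205 was first in both hearts, with 500 and 708. The second quantification put Slc11a2-202 first in both, at 28.5% and 30.5%.

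Slc11a2-205 is the coding transcript with the 3′ UTR element. It stood at 3.55 and 4.66 TPM, a log2 count ratio of -0.36 (-0.53 to -0.20), and the 7 transcripts without it had a ratio of -0.37 (-0.54 to -0.19). The counting intervals of these ratios overlap, and the difference between them was not tested. The second quantification gave -0.41 with the element and -0.32 without it. On the TPM scale the transcripts without the element stood at 9.49 and 15.7 TPM, and the share of Slc11a2-205 was 27.2% in replicate 1 and 22.9% in replicate 2. Gm5475, which overlaps Slc11a2 on the other strand, had no count in either heart.

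Ferritin genes were the most abundant of the set. Fth1 (ENSMUSG00000024661.7, chr19:9980598-9985098, plus strand) encodes the ferritin heavy chain, the subunit that oxidises iron for storage. Its levels were 946.5 TPM in replicate 1 and 914.6 TPM in replicate 2, a mean of 930.5 ± 22.6 TPM (SD, n = 2) that ranked 61st among all genes. The hearts were close, with a log2 ratio of 0.08 (0.06 to 0.11) and 0.09 (0.07 to 0.11) in the second quantification, which put the level higher, at 1300 and 1327 TPM. Fth1-201, with its 5′ UTR element, made up 98.9% and 99.0% of the gene. In the second quantification it made up 89.2% and 89.9%. There Fth1-203, which holds the same element, had 9.64% and 8.97%, against 0% in the first.

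Ftl1 (ENSMUSG00000050708.16, chr7:45457944-45459884, minus strand) encodes the ferritin light chain, which favours mineral formation in the core. It stood at 117.7 TPM in replicate 1 and 75.0 TPM in replicate 2, from 3316 and 2246 counts, a mean of 96.3 ± 30.2 TPM (SD, n = 2). Unlike the heavy chain, it was 1.63-fold higher in replicate 1 (1.54 to 1.72), a log2 ratio of 0.70 (0.62 to 0.78). The second quantification gave 0.67 (0.60 to 0.75). Ftl1-201, which carries the 5′ UTR element, made up 97.3% and 94.0% of the gene.

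The level of Ftl1 is uncertain because its copies share its sequence. Of the 100-base windows of Ftl1-201, 60.4% occur in 4 other annotated genes, most of them in the pseudogene Ftl1-ps1, which was listed at 128.5 and 87.1 TPM. The light chain gene and its 3 pseudogenes together stood at 261.3 and 173.2 TPM. Their summed log2 ratio was 0.64 (0.59 to 0.69), and 0.62 in the second quantification. Ftl1-ps1 held 3525 of the 7065 summed counts in replicate 1 and 2569 of 4992 in replicate 2. Fth1 has few such windows, 0.964%, all in Gm6977. Gm10252, which overlaps Ftl1 on the other strand, had 4 and 0 counts.

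Within each heart the heavy chain exceeded the light chain. Fth1 over Ftl1 was 8.04 in replicate 1 and 12.2 in replicate 2 on the TPM scale, and 3.62 and 5.28 when the pseudogenes were added to both chains. The excess was larger in replicate 2 in either form, and in the second quantification as well, at 7.78 and 11.7 for the 2 genes. Erythroid markers were higher in replicate 1, as Ftl1 was, with Hba-a1 at 14209 and 7345 TPM, and their part in the ratio of Ftl1 was not tested.

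**Figure D4:**
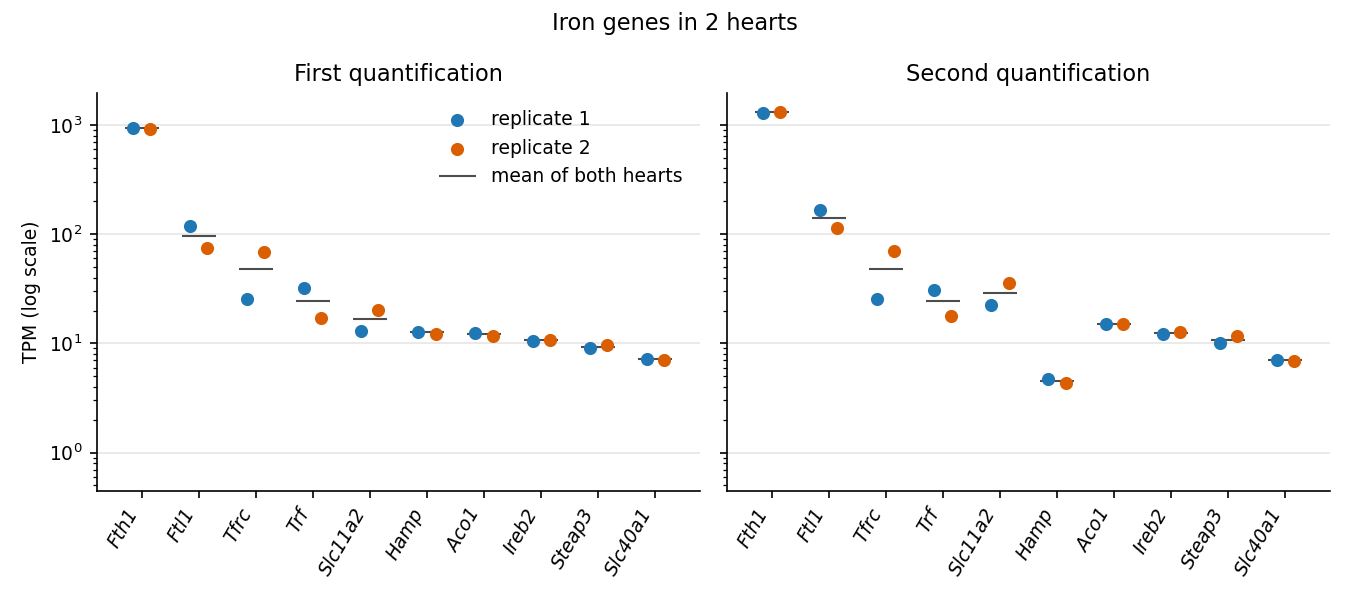
TPM (log axis) of the 10 iron genes in replicate 1 (blue) and replicate 2 (orange), with the mean as a bar, in the first and second quantification. Fth1 stands highest, at 946.5 and 914.6 TPM in the first, and Hamp changes its place between the quantifications, at 12.8 and 12.3 TPM in the first and 4.70 and 4.37 TPM in the second.

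Slc40a1 (ENSMUSG00000025993.10, chr1:45908068-45926523, minus strand) encodes ferroportin, the iron exporter. It had the lowest mean of the 10 in the first quantification, 7.12 ± 0.191 TPM (SD, n = 2), with 7.26 TPM in replicate 1 and 6.99 TPM in replicate 2. Counts were 630 and 660, and the log2 ratio was 0.07 (-0.09 to 0.23), an interval that includes 0. The second quantification gave 0.06 (-0.10 to 0.21). Slc40a1-201, with a 5′ UTR element, led with 77.6% and 78.5% of the gene. Tfrc over Slc40a1 had a log2 TPM ratio of 1.80 in replicate 1 and 3.29 in replicate 2, so receptor mRNA exceeded exporter mRNA in both hearts.

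Hamp (ENSMUSG00000050440.8, chr7:30942368-30944032, minus strand) encodes hepcidin. The first quantification listed 12.8 TPM in replicate 1 and 12.3 TPM in replicate 2, from 130 and 135 counts, a mean of 12.6 ± 0.368 TPM (SD, n = 2). The second found 17 and 16 counts, and 4.70 and 4.37 TPM, so the level of hepcidin mRNA is uncertain although both hearts had it. Its log2 ratio was 0.08 (-0.27 to 0.44) in the first and 0.22 (-0.85 to 1.30) in the second quantification, and a difference under those bounds was not detectable at this depth. The related gene Hamp2 had 33 and 38 counts in the first and 1 and 0 in the second. No 100-base window of Hamp-201 occurred unchanged in another gene, a search that misses near-identical or shorter shared stretches. Gm44662, which overlaps Hamp on the other strand, had no count.

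Aco1 (ENSMUSG00000028405.9, chr4:40143081-40198338, plus strand) encodes the cytosolic aconitase, which acts as iron regulatory protein 1 when it lacks its iron-sulfur cluster. Its levels were 12.4 TPM in replicate 1 and 11.8 TPM in replicate 2, a mean of 12.1 ± 0.445 TPM (SD, n = 2), and the log2 ratio was 0.08 (-0.02 to 0.19). Ireb2 (ENSMUSG00000032293.8, chr9:54863789-54912530, plus strand) encodes iron regulatory protein 2, which is degraded when iron is plentiful. It stood at 10.6 and 10.8 TPM, a mean of 10.7 ± 0.127 TPM (SD, n = 2), with a log2 ratio of 0.01 (-0.08 to 0.10). Both intervals include 0, and the sign for Ireb2 changed with the scaling, over a range of -0.04 to 0.15. Aco1 over Ireb2 had a log2 TPM ratio of 0.23 and 0.13, a mean of 0.18 ± 0.07 (SD, n = 2). Aco1-201 and Ireb2-201 made up at least 97.8% of their genes in the first quantification.

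By mean TPM in the first quantification the order was Fth1, Ftl1, Tfrc, Trf, Slc11a2, Hamp, Aco1, Ireb2, Steap3 and Slc40a1. The gap between neighbours did not exceed the larger of their SDs for Tfrc and Trf (22.9 against 30.9 TPM), Trf and Slc11a2 (7.84 against 10.6), Slc11a2 and Hamp (4.13 against 5.17) or Hamp and Aco1 (0.435 against 0.445). Slc11a2 was nevertheless above Hamp in both hearts and in both quantifications, while the ranges of the other 3 pairs overlapped. In the second quantification Slc11a2 stood above Trf and Hamp stood last, with the other places in the same sequence.

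Another 51 iron genes in 6 lists were set beside the 10. Of the 51, 41 reached 1 TPM in both hearts and 43 passed the CPM filter. None of the 43 was past 2-fold in either direction, where the shares over all genes were 0.906% and 0.294%. Their median log2 ratio was 0.04. At 1.5-fold, 3 were higher in replicate 1, namely Alas2 (0.97), Slc25a37 (0.72) and Scara5 (0.63), of which Slc25a37 is named after its value was seen, and none was higher in replicate 2. The shares of all genes at 1.5-fold were 2.97% and 1.56%.

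Among other uptake genes, 4 of 9 reached 1 TPM in both hearts. Slc39a14, a zinc and iron importer, led with 33.7 TPM in replicate 1 and 27.6 TPM in replicate 2, followed by the reductase Steap4 with 10.1 and 9.62 TPM. Scara5, a receptor for ferritin, had 5.72 and 3.77 TPM. Tfr2, the second transferrin receptor, had no count in either heart, which allows up to 0.0784 and 0.0738 CPM of the unadjusted library total (3 counts). Of the 2 transferrin receptor genes, Tfrc alone had counts.

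The storage helpers were Pcbp2 and Pcbp1, chaperones that deliver iron to ferritin, with means of 162.3 ± 2.27 and 55.0 ± 0.552 TPM (SD, n = 2), and Ncoa4, the receptor that sends ferritin to autophagy. Ncoa4 had 68.3 TPM in replicate 1 and 45.0 TPM in replicate 2, a log2 count ratio of 0.44 (0.38 to 0.51), which is the direction of Ftl1. Mitochondrial ferritin, Ftmt, had no count. Of the export list, the ferroxidase Cp led with 11.0 and 11.4 TPM, heme oxygenase Hmox1 had 3.00 and 2.81, the heme exporter Flvcr1 had 1.94 and 1.95, and the ferroxidase Hephl1 had 0.04 in both. Slc40a1 over Cp had a log2 TPM ratio of -0.60 in replicate 1 and -0.69 in replicate 2.

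In the hepcidin control list, Hfe2, which encodes hemojuvelin, a coreceptor of skeletal and heart muscle, led with 86.4 TPM in replicate 1 and 103.8 TPM in replicate 2. Its mean, 95.1 ± 12.3 TPM (SD, n = 2), differed from that of Ftl1, 96.3 ± 30.2 TPM, by less than either SD. The hemochromatosis gene Hfe had 14.4 and 18.0 TPM and the hemojuvelin partner Neo1 had 16.8 and 14.6 TPM, while the hemojuvelin protease Tmprss6 had 0.01 TPM in both. Hfe2 and Hfe were slightly higher in replicate 2, with log2 ratios of -0.23 (-0.28 to -0.18) and -0.28 (-0.41 to -0.15).

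All 19 genes of mitochondrial iron import and iron-sulfur cluster assembly reached 1 TPM in both hearts, with a median of 27.6 TPM. Hspa9, a chaperone of cluster assembly, led with 193.8 TPM in replicate 1 and 201.2 TPM in replicate 2. Bola3, which helps to deliver clusters, had 114.2 and 140.8 TPM, and Cisd1, a cluster protein of the outer membrane, had 98.5 and 109.4 TPM. Fdxr, the ferredoxin reductase, was lowest at 2.94 and 2.81 TPM. Slc25a37, the mitochondrial iron importer of erythroid cells, had 33.5 and 21.4 TPM.

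Other mRNAs known for iron-responsive elements were measured as well. Alas2, the first enzyme of heme synthesis in erythroid cells, had 202.3 TPM in replicate 1 and 105.0 TPM in replicate 2, a log2 ratio of 0.97 (0.92 to 1.01), and belongs to the erythroid marker list as well. The hypoxia factor Epas1 had 85.4 and 83.9 TPM, and Cdc14a, a phosphatase, had 1.13 and 1.49 TPM. The search described above found a match with all 5 pairs in Alas2, only one with 4 pairs in Cdc14a, and none in Epas1. Slc25a37 shared the direction of the erythroid markers, of which 7 of 7, Alas2 among them, were higher in replicate 1. Tfrc was higher in replicate 2. The part of red cell RNA in these ratios was not tested.

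**Figure D5:**
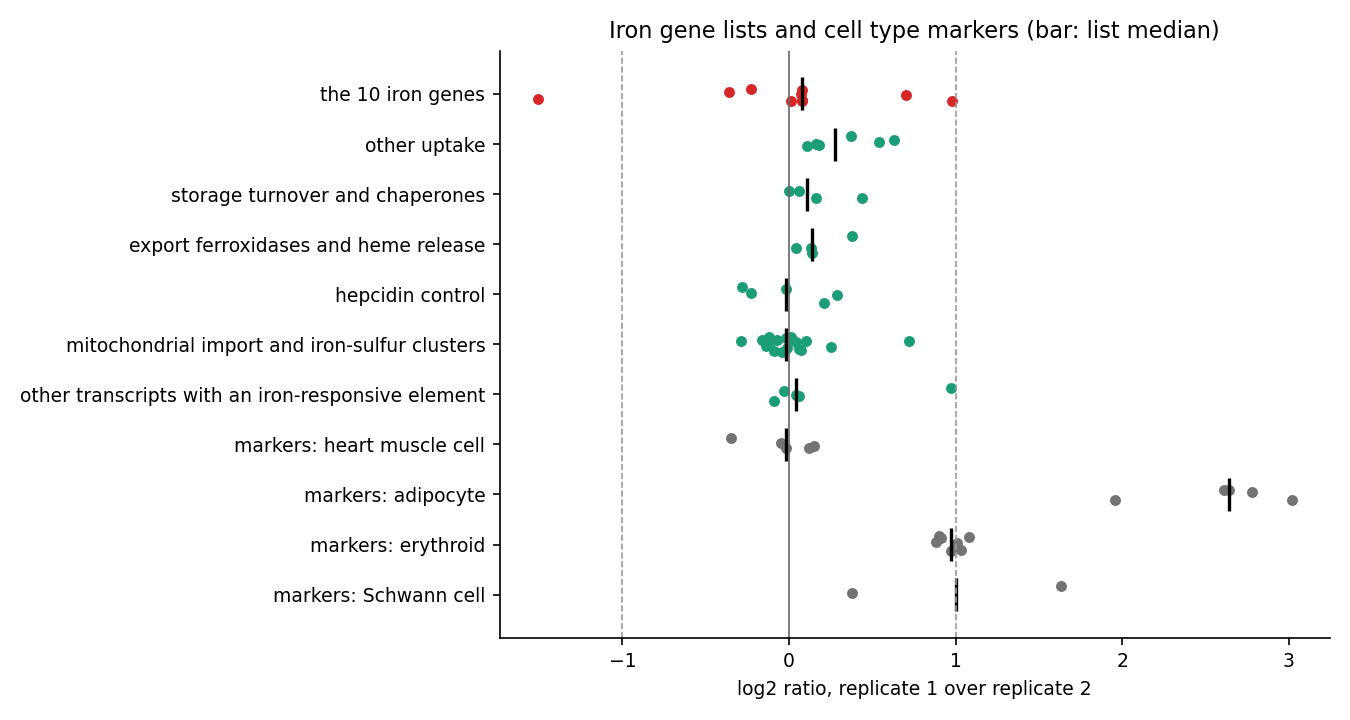
Log2 ratio of replicate 1 over replicate 2 for each gene past the CPM filter in the 10 iron genes (red), the 6 other iron lists (green) and 4 marker lists (grey), with list medians as bars and dashed lines at 2-fold. Of the iron genes Tfrc alone passes a line, while the adipocyte markers lie at 1.96 to 3.02 and the erythroid markers at 0.88 to 1.08.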

How the data were processed

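Estimated counts per gene, TPM and, per transcript, the percent of each gene's abundance were deposited by the authors for both hearts in gene and transcript tables, derived from a transcriptome alignment. For a second quantification, estimated counts and TPM per transcript were deposited by the authors as derived from a read file, per the text files deposited with them, which name mm10 and GENCODE M21. Column names are those of RSEM and kallisto; aligner, versions, settings and strandedness: not given in the sources used here. Reads of an F1 hybrid were assigned to reference transcripts.

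The members and all lists were chosen with earlier results of these data known. Counts were rounded to whole numbers, and spike-ins (97) and transfer RNA rows (26248, holding 3.0 and 1.85 counts) were left out. Ratios used TMM factors (edgeR 4.0.16, R 4.3.3) over the whole table, a mean of at least 1 CPM, and exact binomial 95% intervals (scipy 1.17.1). Alternatives used DESeq2 1.42.0 size factors, total counts, spike-ins, other filters and the second quantification. With 1 library per animal there is no test. Named genes were all 10 members and, of each other list, the 3 highest and the lowest by mean TPM and any past 2-fold; 1 gene that this rule names is not reported here. Ratio code was tested on simulated data. GENCODE M21 gave coordinates and transcript sequences. Intervals and the floor of 3 counts cover counting error only.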

Additional observations from a re-analysis of the deposited data

How the results depend on the processing

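With 2 hearts of 1 group, no result has a replicate test, and depth limits Hamp most. With spike-in scaling, which moves the median of all genes to 0.14, the log2 ratio of Tfrc was -1.37 and 2 members were past 2-fold, since Trf reached 1.12; at 1.5-fold, 3 were. That scaling moved 8 of the 10 ratios outside their counting interval, total counts moved 1, and DESeq2 size factors, the second quantification and leaving out mitochondrially encoded genes moved none. Genes past 2-fold and higher in replicate 1 numbered 2704 with no filter and 41 at a mean of 5 CPM, and those past 2-fold and higher in replicate 2 numbered 2154 and 8. Leaving out mitochondrially encoded genes, which raised every CPM so that 13593 genes passed the filter, gave 142 past 2-fold higher in replicate 1 and 58 higher in replicate 2. The second quantification moved the level of 7 of 10 members by more than 1 SD over the hearts, and posterior mean TPM moved that of Slc40a1, to 8.39. The log2 ratio of Trf over Tfrc was 0.32 without replicate 2 and -2.02 without replicate 1. No paired analysis was possible because there is 1 group.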
